A study of Mus musculus with 32 samples.

Results

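The H2-Mv genes are the class Ib genes of the major histocompatibility complex (MHC) that are used in the vomeronasal organ (VNO). They were taken by gene symbol from the deposited count tables as H2-M1, H2-M9, H2-M10.1, H2-M10.2, H2-M10.3, H2-M10.4, H2-M10.5, H2-M10.6 and H2-M11, which are 9 of the 49671 genes listed. RNA was measured in the VNO epithelium of 32 individual mice of 4 inbred strains, named in the sample labels C57/BL6, 129S6/SVEV, SJL/J and SWR/J and called here B6, 129, SJL and SWR. Each strain was represented by 4 males and 4 females at 42 days of age (P42), so that each strain had 8 mice and each sex 16. The labels give no treatment and no engineered allele in any group, and the paper names its 129 mice 129Sv/J where the labels have 129S6/SVEV. The comparisons asked how the strains differed, how the sexes differed, and whether the difference between the sexes depended on the strain.

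The VNO detects pheromones through neurons in an apical layer, which use V1r receptors and the G protein subunit Gnai2, and in a basal layer, which use V2r receptors and the subunit Gnao1. Basal neurons as a rule combine a V2r receptor with a broadly used V2r of family C (Vmn2r1 to Vmn2r7), and subsets of them also carry H2-Mv molecules in varied combinations. A class I molecule consists of a heavy chain, which each H2-Mv gene encodes, and the light chain beta-2 microglobulin (B2m). The groove of H2-M10.5 was found empty of peptide in its crystal structure, and mice without the cluster of H2-Mv genes have basal neurons that are less sensitive to their stimuli. The strains carry different H2 haplotypes by textbook knowledge, b in B6, b or its close relative bc in 129 lines, s in SJL and q in SWR.

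All 9 genes lay in a single stretch of chromosome 17, at chr17:36284227-36815564 on GRCm38, which spans 531338 bases at the distal end of the MHC. From the lowest coordinate upward the order was H2-M10.2, H2-M10.1, H2-M10.3, H2-M10.4, H2-M11, H2-M9, H2-M1, H2-M10.5 and H2-M10.6. The first 4 of these, H2-M9 and H2-M1 were on the minus strand and H2-M11, H2-M10.5 and H2-M10.6 on the plus strand. The stretch held 29 annotated genes, of which 9 were the H2-Mv genes, 20 were pseudogenes and 0 were other protein-coding genes. No H2-Mv gene overlapped another annotated gene. The transcripts had 5 or 6 exons.

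The sequences just before the annotated start of 6 of the genes are shown because these are the genes that differed between strains by the threshold used below, and because close copies among them had different strain patterns. They are the 110 bases upstream of the RefSeq start (GRCm38.p6, the B6 reference, written 5′ to 3′ on the strand of the gene). Capitals mark CCAAT, its reverse complement ATTGG, and TATAAA with its reverse complement, and all the rest is in lower case.
H2-M1, chr17:36672198-36672307, minus strand: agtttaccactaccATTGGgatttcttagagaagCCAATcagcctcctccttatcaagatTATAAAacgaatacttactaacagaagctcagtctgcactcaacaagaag
H2-M9, chr17:36642664-36642773, minus strand: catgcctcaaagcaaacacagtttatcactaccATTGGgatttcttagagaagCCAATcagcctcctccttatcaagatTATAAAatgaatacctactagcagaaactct
H2-M10.2, chr17:36286422-36286531, minus strand: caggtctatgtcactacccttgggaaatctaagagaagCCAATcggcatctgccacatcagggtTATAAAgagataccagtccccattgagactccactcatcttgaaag
H2-M10.3, chr17:36368418-36368527, minus strand: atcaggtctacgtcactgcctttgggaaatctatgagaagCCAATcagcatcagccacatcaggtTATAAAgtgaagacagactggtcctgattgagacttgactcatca
H2-M10.4, chr17:36462330-36462439, minus strand: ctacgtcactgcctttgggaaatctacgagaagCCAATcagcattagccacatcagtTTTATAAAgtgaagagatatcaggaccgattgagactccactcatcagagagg
H2-M10.5, chr17:36772800-36772909, plus strand: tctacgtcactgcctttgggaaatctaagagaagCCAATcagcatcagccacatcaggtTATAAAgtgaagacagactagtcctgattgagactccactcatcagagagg

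All 9 genes were found in the RefSeq promoter table, where a promoter is 300 bases, from 250 before to 50 after the start. CCAAT, a common core promoter motif bound by NF-Y, was found on either strand in 9 of 9 H2-Mv promoters and in 37.9% of all 27025 promoters. TATAAA was found in 7 of 9, the exceptions being H2-M10.1 and H2-M11, and in 14.2% of all promoters. The other motifs searched on both strands were the EBF motif (0.914% of all promoters), the interferon response motif (3.49%), GCCNNNGGC (AP-2, 16.5%), TGACGTCA (CRE, 1.88%) and CAGCTG (E-box, 16.1%), and these were found in 0 of 9 H2-Mv windows. The promoters of H2-M10.3 and H2-M10.5 were identical at 95.2% of aligned bases and those of H2-M1 and H2-M9 at 92.5%. Among all 15 pairs of H2-M10 promoters identity ranged from 77.7% to 95.2%. The promoters are those of the B6 reference, and those of the other strains were not analysed here.

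The coding sequences told 2 groups apart, the H2-M10 genes on one side and H2-M1, H2-M9 and H2-M11 on the other. The 15 pairs of H2-M10 genes shared 82.9% to 89.6% of aligned coding bases, with the pair of H2-M10.3 and H2-M10.5 the closest. H2-M1 and H2-M9 shared 85.6%, and the remaining pairs fell to 63.3% for H2-M1 with H2-M10.5. The longest exact run of coding bases shared by any pair was 95 bases, in H2-M10.2 and H2-M10.3. For each gene, the reference transcript with the longest coding sequence was cut into windows as long as a sequenced read. No window was found unchanged in the transcript of another gene. For H2-M9 this transcript has 1070 of 1443 exon bases, and the rest was not searched. Reads were counted only where uniquely placed on the B6 genome, and sequence differences of 129, SJL and SWR in this region cannot be told apart from differences in RNA by these counts.

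The libraries held 5106398 to 18640871 reads on genes (median 11461344.5), and the H2-Mv genes together took 0.0641% to 0.124% of them. The lowest count of any H2-Mv gene in a library was 64 reads, of H2-M11 in SJL, so that all 9 genes passed the filter on low counts. The tissue label was checked against 5 marker genes of vomeronasal neurons, of which 4 were detected in every strain, and Trpc2, which overlaps Xntrpc in the annotation, was at 0. Their summed normalized count ranged from 22051 to 35895, against 2485 to 4996 for 5 markers of main olfactory neurons and 2.38 to 39.5 for 4 markers of B lymphocytes. Most of the vomeronasal sum was Omp, a marker of mature neurons, with strain means of 16606 to 19534. Xntrpc had strain means of 715 to 1213, so that the contrast rested mainly on Omp and Gnai2. Neither of these is confined to vomeronasal neurons, so this contrast cannot tell the VNO from the main olfactory epithelium. In the olfactory list Cngb1 had strain means of 1382 to 2368 and Cnga2 of 0.676 to 24.1. The library of B6 female replicate 1 and that of 129 male replicate 1 stood apart, with 2457 and 4031 normalized counts on 3 markers of ciliated respiratory cells, against 93.98 to 876 in the other 30. The 48 pairs of libraries within a group of strain and sex differed by more than sampling noise, with a chi-square per degree of freedom of 3.01 to 54.2.

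Levels of different genes were compared per exon length in TPM, the raw count divided by exon length and scaled to the same total in each library. H2-M10.5 was the most abundant H2-Mv transcript in B6 with 483 ± 46.9 TPM (SD, n = 8), and its 8 libraries lay above those of every other member. In SJL and SWR the first place belonged to H2-M10.3, with 522 ± 49.2 and 530 ± 16.6 TPM (SD, each n = 8), again without overlap with the next gene, H2-M10.2. In 129 the first 3 places went to H2-M10.5 (257 ± 46.7 TPM), H2-M10.2 (250 ± 42.4) and H2-M10.3 (222 ± 33.1), whose ranges overlapped (SD, each n = 8).

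H2-M11 was the least abundant in each strain, from 21.2 ± 4.12 TPM in SJL to 40.4 ± 4.55 in B6 (SD, each n = 8). H2-M9 stood next above it in each strain, from 29.0 ± 6.60 TPM in 129 to 71.9 ± 5.87 in SWR (SD, each n = 8). The ranges of these neighbours overlapped in 129 and SJL and did not overlap in B6 and SWR. For H2-M9 the exon length was 1443 bases over all its transcripts, where the transcript with the longest coding sequence has 1070. Its level and place with the shorter length were not computed. The middle of the order changed between strains, and H2-M10.4 took the third place in B6 and SWR (230 ± 19.1 and 252 ± 17.4 TPM) and the sixth in 129 and SJL (85.4 ± 15.3 and 80.7 ± 9.33 TPM, SD, each n = 8). Neighbours in the order whose ranges overlapped were most numerous in 129, where H2-M10.6 and H2-M9 alone were apart. The order was the same in 36 of 36 places when the deposited normalized counts were divided by exon length. Both measures divide the same reads by the same lengths, so that the order could hardly differ, and the lengths were not tested by it.

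Strains were compared in each of 6 pairs with edgeR's quasi-likelihood test, and a gene was called when its fold change (FC) exceeded 2 and its Benjamini-Hochberg adjusted p (FDR) over 18382 tested genes was under 0.05. Of the 54 values for 9 genes in 6 pairs, 12 were called, and 6 of the 9 genes were called in at least 1 pair, where 19.8% of all tested genes were. Between B6 and 129, 1 of 9 was called against a background of 11.1%, and between SJL and 129 it was 1 of 9 against 8.38%. Between SWR and 129, 3 of 9 were called against 7.73%. Between SJL and B6, 2 of 9 were called against 7.99%, and between SWR and B6 2 of 9 against 8.05%. Between SWR and SJL, 3 of 9 were called against 4.50%.

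Without the limit on the FC, 44 of the 54 values had an FDR under 0.05. By that rule 8 of 9 genes differed between B6 and 129, where 52.8% of all genes did, 6 of 9 between SJL and 129 (38.3%), and 8 of 9 between SWR and 129 (41.8%). All 9 differed between SJL and B6 (45.7%), 6 of 9 between SWR and B6 (40.9%), and 7 of 9 between SWR and SJL (32.5%). The count for B6 and 129 was 7 with a replicate block, where H2-M10.1 had an FDR of 0.0507 in place of 0.0413, and 6 without the 2 libraries that stood apart. Of the 44 values, 38 had an FDR under 0.05 whichever single library was left out. The other 6 were H2-M1 and H2-M10.1 in B6 minus 129, H2-M11 in SJL minus 129, H2-M10.1 and H2-M10.6 in SWR minus 129 and H2-M10.5 in SWR minus SJL. The median absolute log2 fold change (LFC) of the 9 genes was 0.70 in B6 minus 129 and 0.94 in SJL minus B6, beside 0.25 and 0.22 over all genes tested. It was 0.28, 0.46, 0.56 and 0.49 in SJL minus 129, SWR minus 129, SWR minus B6 and SWR minus SJL, beside 0.18, 0.20, 0.20 and 0.17 over all genes.

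The ranges of the 8 libraries of each strain did not overlap in 31 of the 54 comparisons. By pair these were 6 of 9 genes for B6 and 129 (14.4% of all tested genes), 2 of 9 for SJL and 129 (11.9%), 5 of 9 for SWR and 129 (13.5%), 8 of 9 for SJL and B6 (13.1%), 6 of 9 for SWR and B6 (12.5%) and 4 of 9 for SWR and SJL (10.2%). In SJL minus B6, 7 genes were lower in SJL and 2, H2-M10.2 and H2-M10.3, were higher, each with an FDR under 0.05. Pairs that share a strain also share its libraries.

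**Figure D1:**
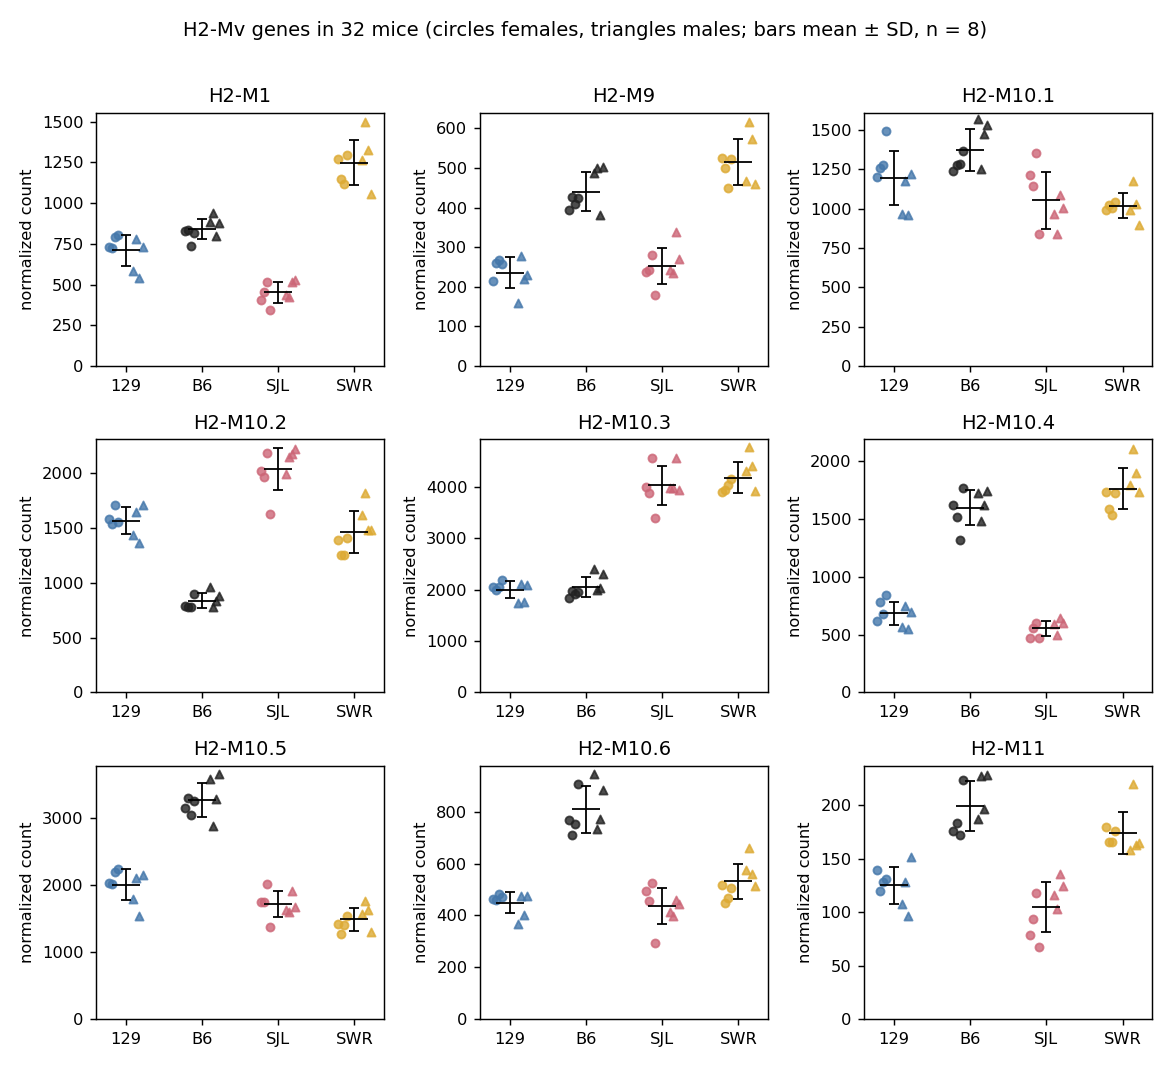
Normalized counts (y axes, linear from 0) of each H2-Mv gene in the 8 mice of each strain, with females as circles, males as triangles and bars for the mean and SD. H2-M10.4 falls into a high pair of strains (B6, SWR) and a low pair (129, SJL), H2-M10.3 into a high pair (SJL, SWR) and a low pair (129, B6), and H2-M10.2 is lowest in B6.

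H2-M10.4 differed most between strains, with the highest strain mean 3.18-fold above the lowest. Its normalized counts were 548, 683 and 839 (lowest, median and highest of 8 mice) in 129 and 466, 576 and 644 in SJL. In B6 they were 1313, 1618 and 1762, and in SWR 1529, 1730 and 2102. Each mouse of B6 and SWR thus lay above each mouse of 129 and SJL, while 129 overlapped SJL and B6 overlapped SWR. The gene was called in 4 pairs. Its LFC was 1.22 ± 0.08 (SE) in B6 minus 129 (FDR 2.1e-14), 1.35 ± 0.08 in SWR minus 129 (FDR 1.2e-15), -1.53 ± 0.08 in SJL minus B6 (FDR 5.4e-17) and 1.67 ± 0.08 in SWR minus SJL (FDR 1e-17). In SWR minus B6 the LFC was 0.13, with a 95% interval of -0.02 to 0.29.

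H2-M1 lies near H2-M9, with 27341 bases between them, and both had their highest mean in SWR. The normalized counts of H2-M1 were 1059, 1268 and 1496 in SWR, above all mice of the other strains. They were 342, 448 and 526 in SJL, below all mice of the other strains, with 542, 728 and 806 in 129 and 736, 832 and 942 in B6. Only SWR minus SJL was called for this gene, with an LFC of 1.46 ± 0.08 (SE, FDR 6.0e-16), although all 6 of its pairs had an FDR under 0.05. The smallest of these, B6 minus 129 (LFC 0.24, FDR 0.015), had an FDR of 0.053 without the 2 libraries that stood apart, 0.0503 without 129 male replicate 3 and 0.51 in females alone.

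H2-M9 had normalized counts of 158, 244 and 278 in 129 and 178, 243 and 339 in SJL, which overlapped. In B6 they were 380, 425 and 504, and in SWR 449, 511 and 616, and these overlapped each other and lay above 129 and SJL. It was called in SWR minus 129 (LFC 1.11 ± 0.10, SE, FDR 3.5e-11) and in SWR minus SJL (1.02 ± 0.10, FDR 3.3e-10). The second call was lost without SJL female replicate 4 (LFC 0.966) or SWR male replicate 2 (0.991), and in males alone. In B6 minus 129 the LFC was 0.89 ± 0.10 (FDR 5.3e-09), under the limit of 1. H2-M1 and H2-M9 thus differed in the place of 129, where H2-M1 lay above SJL (LFC of SJL minus 129 -0.66, FDR 9.9e-08) and H2-M9 did not differ from it beyond the spread (LFC 0.09, 95% interval -0.12 to 0.29).

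H2-M10.3 and H2-M10.5 are the closest pair by coding and promoter sequence, and they had their highest strain means in different strains, H2-M10.3 in SWR and H2-M10.5 in B6. The normalized counts of H2-M10.3 were 1743, 2052 and 2200 in 129 and 1835, 1988 and 2410 in B6. In SJL they were 3396, 3982 and 4575, and in SWR 3906, 4102 and 4777. All mice of SJL and SWR lay above all mice of 129 and B6, and within each of these pairs of strains the ranges overlapped. H2-M10.3 was called in SJL minus 129 (LFC 1.01 ± 0.06, SE, FDR 1.1e-15), SWR minus 129 (1.05 ± 0.06, FDR 3.0e-16) and SWR minus B6 (1.02 ± 0.06, FDR 7.8e-16). In SJL minus B6 the LFC was 0.97 ± 0.06 (FDR 2.7e-15), so that the 4 values stood close to the limit on the FC on either side of it. The call in SJL minus 129 was lost when either 129 male replicate 1 or 129 male replicate 3 was left out (LFC 0.97 and 0.98), when SJL female replicate 3 was left out (0.97), and when SJL male replicate 3 was left out (0.99). That in SWR minus B6 was lost without SWR male replicate 2 (LFC 0.999). The value in SJL minus B6 passed the limit without B6 male replicate 1, B6 male replicate 4 or SJL female replicate 4, when 3 genes in place of 2 were called in that pair.

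The normalized counts of H2-M10.5 were 2880, 3268 and 3653 in B6, above all mice of the other 3 strains. They were 1538, 2065 and 2236 in 129, 1373, 1708 and 2016 in SJL and 1273, 1475 and 1761 in SWR, and these 3 strains overlapped. It was called in SWR minus B6 with an LFC of -1.15 ± 0.08 (SE, FDR 1.2e-14). In SJL minus B6 its LFC was -0.94 ± 0.08 (FDR 2.0e-12) and in B6 minus 129 0.70 ± 0.07 (FDR 1.5e-09), neither past the limit on the FC.

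H2-M10.2, at the low end of the cluster, was the only member with its lowest level in B6. Its normalized counts there were 776, 811 and 961, below all mice of the other strains. They were 1362, 1568 and 1713 in 129, 1251, 1445 and 1825 in SWR and 1630, 2083 and 2223 in SJL, and each of these 3 ranges overlapped the other two. It was called in SJL minus B6, with an LFC of 1.28 ± 0.06 (SE, FDR 5.9e-18). In B6 minus 129 the LFC was -0.91 ± 0.06 (FDR 6.8e-14) and in SWR minus B6 0.80 ± 0.06 (FDR 2.1e-12).

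H2-M10.1, H2-M10.6 and H2-M11 were not called in any pair. H2-M10.1 varied least, with strain means from 1018 ± 77.7 in SWR to 1374 ± 132 in B6 (normalized counts, SD, each n = 8), and the ranges of SWR and B6 alone did not overlap. H2-M10.6 was highest in B6 (711, 771 and 946), above all mice of the other strains, which ranged from 293 to 662. Its LFC was 0.85 ± 0.09 in B6 minus 129 (SE, FDR 7.0e-10) and -0.90 ± 0.09 in SJL minus B6 (FDR 1.9e-10). H2-M11 had normalized counts of 172, 192 and 229 in B6 and 159, 166 and 220 in SWR, above the 67.4 to 152 of 129 and SJL. Its LFC was -0.94 ± 0.11 in SJL minus B6 (SE, FDR 5.9e-09) and 0.74 ± 0.10 in SWR minus SJL (FDR 8.5e-07).

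H2-M10.5 and H2-M10.6, with 35936 bases between them, both had their highest mean in B6, but the lowest mean of H2-M10.5 was in SWR and that of H2-M10.6 in SJL. H2-M10.1 lies between H2-M10.2 and H2-M10.3, and these 3 had their highest means in B6, SJL and SWR. H2-M1 and H2-M10.4, which are separated by H2-M11 and H2-M9, had the same order of strain means (SWR, B6, 129, SJL).

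**Figure D2:**
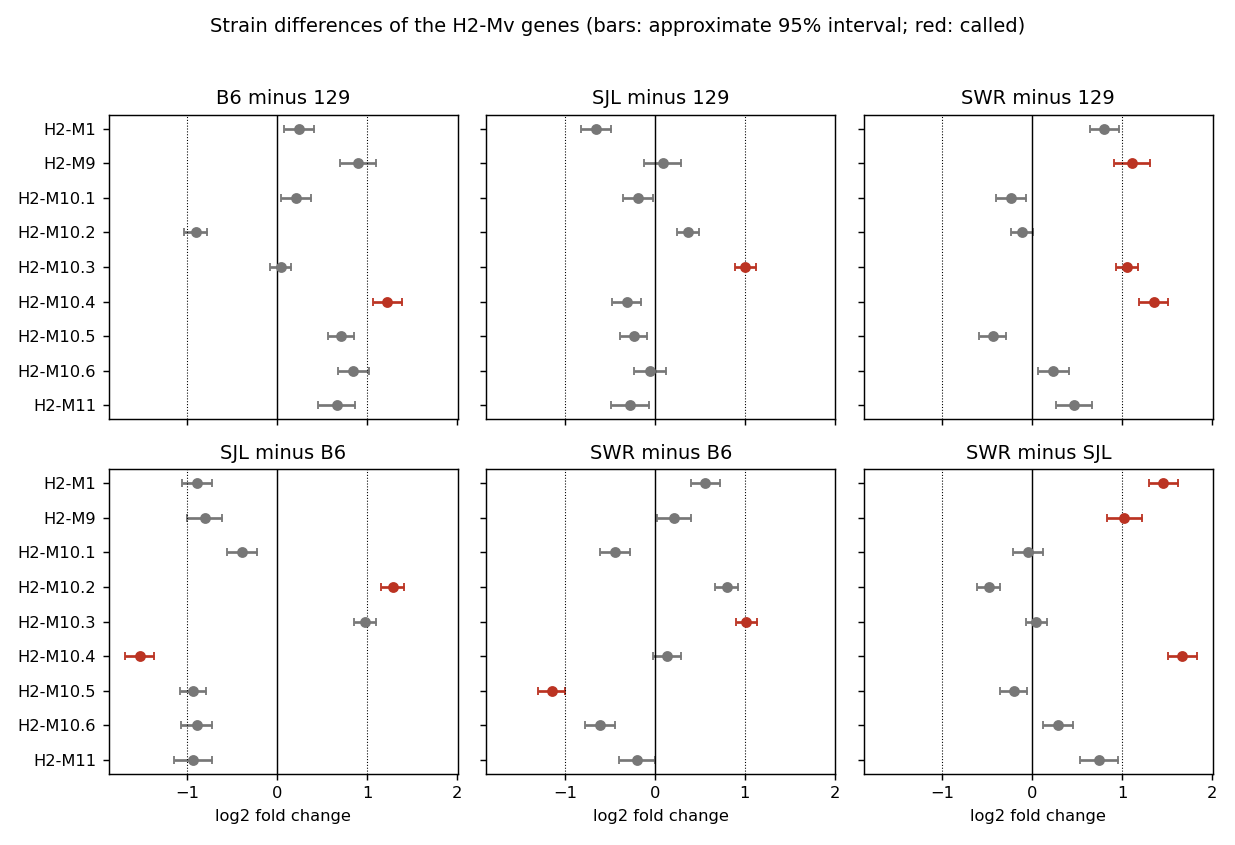
LFC (x axes, log2 scale) of the 9 H2-Mv genes in the 6 pairs of strains, with approximate 95% intervals, called values in red and dotted lines at an FC of 2. H2-M10.3 sits close to the line at 1 in 4 panels, and H2-M10.4 lies outside the lines with its whole interval in 4 panels.

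The summed normalized count of the 9 genes was 8967 ± 914 in 129, 10648 ± 1087 in SJL, 11421 ± 861 in B6 and 12378 ± 1111 in SWR (SD, each n = 8). The sum of the V2r genes was 87277 ± 11663, 101854 ± 8783, 110671 ± 7791 and 110478 ± 8048 in the same order. Per 100 V2r counts there were 10.32 ± 0.452 H2-Mv counts in 129, 10.45 ± 0.494 in SJL, 10.34 ± 0.653 in B6 and 11.21 ± 0.632 in SWR (SD, each n = 8). The first 3 means thus lay within an SD of each other, and the range of SWR, 10.11 to 11.89, overlapped those of the others. Without the 2 libraries that stood apart the values of 129 and B6 were 10.18 ± 0.239 and 10.39 ± 0.686 (SD, each n = 7). The family C V2r genes alone did not follow the strain order of the H2-Mv sum. Their sum was 20286 ± 2617 in 129, 22378 ± 1889 in SJL, 18449 ± 1444 in B6 and 22168 ± 1334 in SWR (SD, each n = 8). In these bulk samples, fewer cells of a type and less RNA per cell cannot be told apart.

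**Figure D3:**
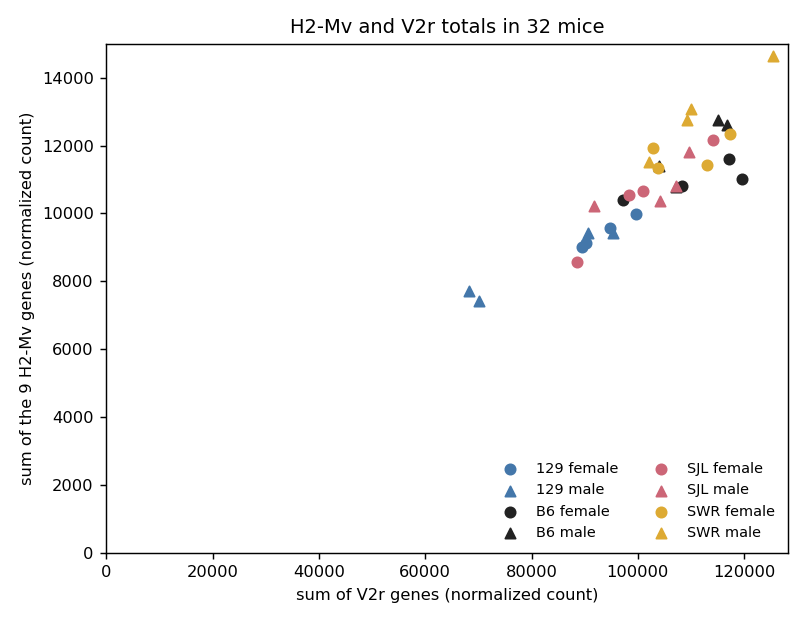
Sum of the 9 H2-Mv genes (y axis) against the sum of the V2r genes (x axis) in each of the 32 mice, both in normalized counts from 0, with strains by colour and sexes by symbol. For this sum of all V2r genes, family C included, the points lie near a common line. The strain means were 10.32 to 11.21 H2-Mv counts per 100 V2r counts.

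Which genes made up the total differed. Per exon length, H2-M10.3 made up 32.7% ± 0.976 of the H2-Mv total in SJL and 29.0% ± 0.871 in SWR, and 18.7% ± 0.570 in 129 and 15.4% ± 0.628 in B6 (SD, each n = 8). H2-M10.5 made up 28.1% ± 1.02 in B6 and 11.8% ± 0.469 in SWR. H2-M10.2 ranged from 8.96% ± 0.285 in B6 to 23.6% ± 1.21 in SJL, and H2-M1 from 5.51% ± 0.381 in SJL to 13.0% ± 0.569 in SWR. The spread between mice of a strain was small beside these differences. H2-M10.4 ranged from 5.05% ± 0.424 in SJL to 13.7% ± 0.463 in SWR (SD, each n = 8). H2-M9 and H2-M11 made up small shares that also differed, with strain means of 2.24% to 3.92% and 1.33% to 2.36%.

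**Figure D4:**
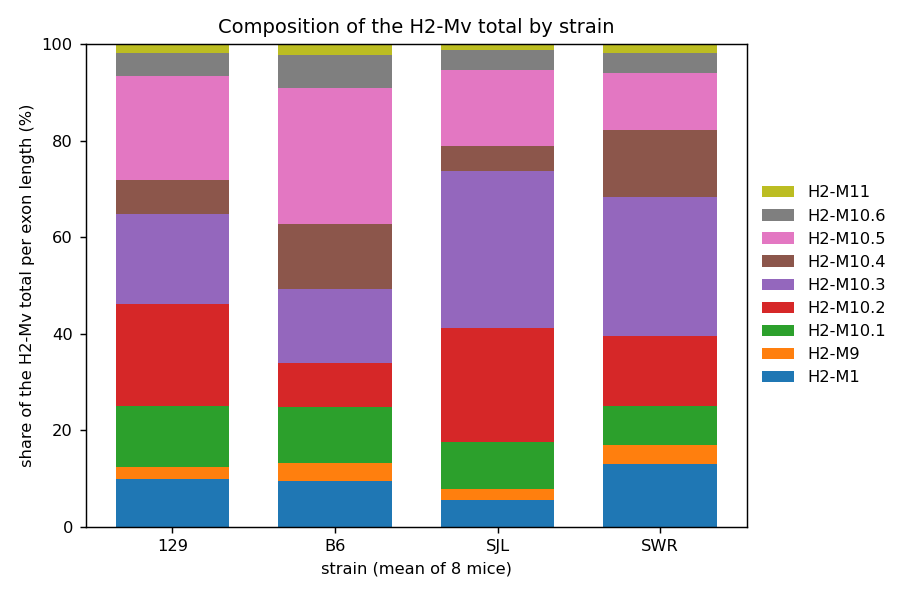
Mean share of each H2-Mv gene in the total of the 9 genes after division by exon length (y axis, %), by strain (x axis, 8 mice each). The H2-M10.5 segment is widest in B6 (28.1%), and the H2-M10.3 segment in SJL (32.7%) and SWR (29.0%).

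Marker sums of other cells also differed between the strains, and their part in the H2-Mv differences was not tested. The 5 macrophage markers, all detected, had summed normalized counts of 968 to 1365 in B6, 826 to 1098 in SJL, 479 to 833 in SWR and 359 to 555 in 129. The 3 markers of sustentacular cells had 7327 to 11410 in SWR and 2814 to 4971 in the other strains. Most of this sum was Cyp2a5 (mean 8445 in SWR), whereas Cyp2g1 had its highest mean in B6 (75.4) and Muc2 in SJL (132). The 5 markers of main olfactory neurons had 3745 to 4996 in SJL and 2485 to 4107 in the others. Of these, Adcy3, Cnga4 and Cngb1 had their highest means in SJL, whereas Cnga2 (24.1) and Gnal (57.3) had theirs in B6. Gnao1, the subunit of the basal neurons, was lower in B6 (1420 ± 137) than in 129 (1900 ± 258), SJL (1548 ± 277) and SWR (1652 ± 133, normalized counts, SD, each n = 8), while 7 of the H2-Mv genes were higher and 1, H2-M10.2, was lower in B6 than in 129 with an FDR under 0.05. With the log2 CPM of Gnao1 as a covariate, the largest move in the LFC of an H2-Mv gene was 0.123. The same number of genes was called in each pair. Centred by strain, Gnao1 had a Pearson's r of -0.35 to -0.02 with the H2-Mv genes, so that this covariate could change little. The share of basal neurons was not tested by it. By the FDR alone, 40 of the 54 values in place of 44 were under 0.05 with this covariate. The 4 values that no longer were are H2-M1 (LFC 0.15, FDR 0.30) and H2-M10.1 (0.13, FDR 0.41) in B6 minus 129, H2-M10.6 in SWR minus 129 (0.17, FDR 0.16) and H2-M10.5 in SWR minus SJL (-0.19, FDR 0.055). The summed family C V2r genes as a covariate did change the numbers of called genes, as given in the closing section.

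No H2-Mv gene was called between males and females. With strain as an additive term, an FC over 2 and an FDR under 0.01, 0 of 9 were called by edgeR, where 0.0381% of all genes were, and DESeq2 called 0 as well. At an unadjusted p under 0.05 there was 1 of 9, H2-M10.2, and 8.97% of all genes. The LFC of male minus female ranged from -0.08 for H2-M10.1 to 0.13 for H2-M11, and the widest bounds of the 95% intervals over the 9 genes were -0.20 and 0.27. The intervals of the 9 genes thus lay within these bounds.

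Within single strains the count was also 0 of 9 by edgeR (FC over 2, FDR under 0.05) and by DESeq2, where 0.0381% of all genes were called in 129, 0.0544% in SJL, 0.0544% in B6 and 0.0816% in SWR. At an unadjusted p under 0.05 there were 1 of 9 genes in 129, 2 in SJL, 1 in B6 and 2 in SWR, beside 7.87%, 6.64%, 9.14% and 8.25% of all genes. In 129 all 9 genes had a lower level in males (LFC from -0.28 to -0.05, and from -0.23 to -0.02 without the 2 libraries that stood apart), and in B6 and SWR all 9 had a higher level (0.07 to 0.19 and 0.01 to 0.27). In SJL 6 were higher and 3 lower. The H2-Mv sums of 129 males were 7713 and 7424 in replicates 1 and 3, which had the highest ciliated markers of the strain (4031 and 876), and 9434 and 9439 in replicates 2 and 4. Those of 129 females were 9020 to 9991, so that replicates 2 and 4 lay within the female range, and the part of these libraries in the direction was not tested further. The genes vary together between mice, so that these directions are not 9 separate observations. The largest value was that of H2-M11 in SJL, with an LFC of 0.43 (FDR 0.45). The interaction of sex and strain was called for 0 of 9 by edgeR (FDR under 0.05, background 0.0163%) and 0 by DESeq2, with FDR values of 0.49 to 0.70 and 1 gene, H2-M10.1, at an unadjusted p under 0.05, beside 8.94% of all genes.

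Within strains the genes rose and fell together from mouse to mouse. Correlations were computed on log2(normalized count + 1) centred by strain over 32 mice, with p from 100000 shuffles of mice within strains and adjusted over all 126 pairs computed. The 36 pairs of H2-Mv genes had Pearson's r of 0.41 to 0.88 (median 0.71) and Spearman's rho of 0.38 to 0.89 (median 0.68). The adjusted permutation p of r was under 0.05 in 35 of 36, the exception being H2-M10.1 with H2-M11 (r = 0.41, rho = 0.38, permutation p 0.0579, adjusted 0.0776), and that of rho likewise (permutation p 0.0604, adjusted 0.0819). Beside this, the median r of a member with all other tested genes lay between -0.03 and -0.01. Genes outside the family could still be closer than its members, since the 5 highest r of H2-M10.4 and of H2-M11 all belonged to other genes. Leaving out the 2 mice farthest from the median left a median r of 0.67, and leaving out the 2 libraries that stood apart left 0.69. Within strains, all 144 values of r were positive, with medians of 0.83 in 129, 0.81 in SJL, 0.78 in SWR and 0.54 in B6 (n = 8 mice each).

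The strongest pair was H2-M10.3 with H2-M10.5, with r = 0.88 and rho = 0.89 (permutation p 1e-05, the smallest the shuffles can give, adjusted 4.34e-05). Its r was 0.87 without the 2 farthest mice, and 0.94 in SJL, 0.93 in SWR, 0.92 in 129 and 0.79 in B6. The highest strain means of these genes were in SWR and in B6. The second pair was H2-M10.2 with H2-M10.6 (r = 0.86, rho = 0.84, permutation p 1e-05, adjusted 4.34e-05, and 0.80 without the 2 farthest mice), which lie at opposite ends of the cluster. Their r was 0.98 in SWR, 0.96 in B6, 0.82 in 129 and 0.80 in SJL. H2-M1 and H2-M9 had r = 0.82 and rho = 0.85 (permutation p 1e-05, adjusted 4.34e-05, and 0.84 without the 2 farthest mice), with 0.73 to 0.91 in the single strains.

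The H2-Mv genes also varied with the family C V2r genes, pairs that were added after the data had been seen. Over the 63 pairs r ranged from 0.10 to 0.83 (median 0.62, rho 0.12 to 0.80), with an adjusted permutation p under 0.05 in 53. For Vmn2r1, Vmn2r2 and Vmn2r3 all 9 members had r of 0.64 to 0.78, 0.60 to 0.83 and 0.62 to 0.81. Vmn2r5 differed from these, with r of 0.10 to 0.42 and 2 of 9 under 0.05. Within strains, 230 of the 252 values were positive. Without the 2 farthest mice the median r was 0.56.

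With markers of the neuron classes the relations were weaker, and none of the 27 values of r had an adjusted permutation p under 0.05, whereas 1 value of rho did (H2-M10.2 with Omp, rho = 0.41, r = 0.41, adjusted permutation p of rho 0.0421). For Gnao1 r was -0.35 to -0.02 (rho -0.25 to 0.00), for the apical subunit Gnai2 it was -0.10 to 0.30 (rho -0.11 to 0.26), and for Omp, a marker of mature neurons, it was 0.12 to 0.41 (rho 0.12 to 0.41). Without the 2 farthest mice they were -0.24 to 0.05, -0.12 to 0.37 and -0.01 to 0.47. Within strains 69 of 108 values were positive.

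**Figure D5:**
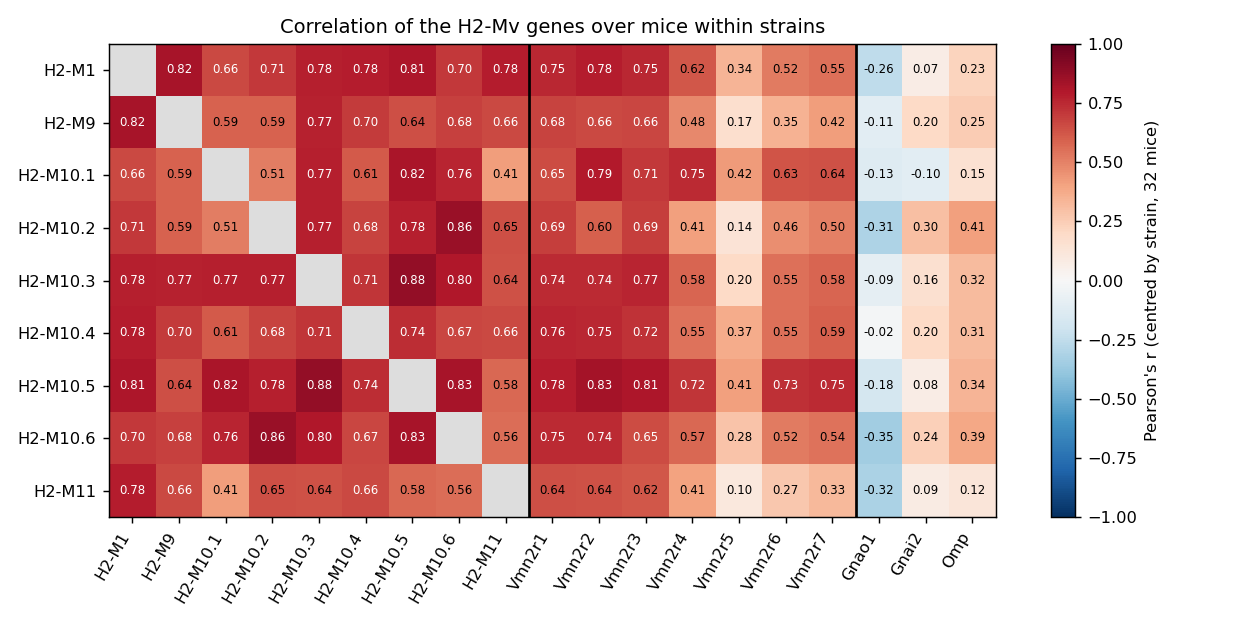
Pearson's r over 32 mice, centred by strain, of each H2-Mv gene (rows) with the other H2-Mv genes, the family C V2r genes, and Gnao1, Gnai2 and Omp (columns), with the colour scale from -1 to 1. The block of H2-Mv genes runs from 0.41 to 0.88, and the Gnao1 column from -0.35 to -0.02.

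The genes most like each member were taken as the 5 tested genes with the highest r on the same scale over the 32 mice, which is a description of these libraries. Of the 45 places, 9 went to other H2-Mv genes and 7 to V2r genes, and r ran from 0.77 to 0.88. H2-M1 was most like the receptor genes Vmn2r66, Vmn2r28 and Vmn2r112 (r = 0.84, 0.84 and 0.83), followed by H2-M9 and Trappc2, a gene of vesicle transport (both 0.82). H2-M9 was most like H2-M1, followed by Fyttd1 (0.78), Vmn2r78 and Osbpl9 (both 0.77) and H2-M10.3 (0.77). H2-M10.1 was most like H2-M10.5 (0.82), Vmn2r2 (0.79), Traf3ip3 (0.78), H2-M10.3 and Cnpy1 (both 0.77).

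H2-M10.3 was most like H2-M10.5, Abhd3 and Osbpl9 (both 0.83), and Vmn2r49 and Calr4, a calreticulin gene (both 0.81). Calr4 also stood second for H2-M10.4 (0.83), after Gm36028 (0.84) and before Taf7 (0.83), Hmox2 and Selenok (both 0.82). H2-M10.5 was most like H2-M10.3, Copg2 of the transport vesicle coat (0.85), BC031181 (0.85), Trappc2 and Vmn2r2 (both 0.83). H2-M10.2, H2-M10.4, H2-M10.6 and H2-M11 had no V2r gene among their first 5. Those of H2-M10.2 were H2-M10.6, Zwint and Atp6v1e1 (both 0.83), Ctxn3 (0.81) and Zdhhc13 (0.80). H2-M10.6 was most like Cers5 (0.87), H2-M10.2, Tbcb (0.86), Mat2b and Nptn (0.84 for both), and H2-M11 was most like the proteasome subunit gene Psma1 (0.81), Snx2, Psma5, Ctxn3 and Selenok (0.81 for each of these).

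Among the first 100 genes of each list the members differed in how many were V2r genes or pseudogenes, which made up 0.832% of the tested genes. There were 21 for H2-M9, 20 for H2-M1, 16 for H2-M10.1, 13 for H2-M10.4, 12 each for H2-M10.3 and H2-M10.5 and 10 for H2-M11. For H2-M10.2 and H2-M10.6 there were 2 each. V1r genes, 0.947% of the tested genes, took 1 to 4 places. Other H2-Mv genes took 6 places for H2-M10.3 and H2-M10.5, 5 for H2-M1 and H2-M9 and 4 for H2-M10.1 and H2-M10.6. They took 3 for H2-M10.2 and H2-M10.4 and 1 for H2-M11, so that many genes outside the family were closer to a member than parts of the family were.

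Of 13 genes of class I assembly and peptide loading (B2m, the peptide transporter Tap1 and Tap2, tapasin and its relative, the chaperones Calr, Canx and Pdia3, Erap1, the immunoproteasome subunits and the regulator Nlrc5), 1 was called in any pair, where 19.8% of all genes were. That gene was Nlrc5, which was higher in B6 than in 129 (LFC 1.53 ± 0.19, SE, FDR 4.6e-08). B2m was higher than in 129 in each other strain, with an LFC of 0.53 in SWR, 0.38 in SJL and 0.30 in B6 (FDR 1.9e-07, 4.6e-05 and 0.00070), and was not called. Of the 5 other genes whose symbols start with H2-M, only H2-M3 passed the filter, a class Ib gene used in many tissues that presents formylated peptides. It was called against 129 in each other strain, with an LFC of 1.75 ± 0.14 in B6, 1.63 ± 0.14 in SWR and 1.57 ± 0.14 in SJL (SE, FDR 1.1e-12, 5.8e-12 and 1.9e-11), a pattern that none of the 9 H2-Mv genes had.

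Of the 7 family C genes 1 was called, Vmn2r5, which was lower in B6 than in 129 (LFC -1.72 ± 0.08, SE, FDR 3.0e-18), SJL and SWR (LFC 2.09 and 1.18 in SJL minus B6 and SWR minus B6). Vmn2r1, the most broadly used of them, was not called, with an LFC of 0.70 in SWR minus B6 (FDR 6.7e-11). Of 114 other V2r genes tested, 78 (68.4%) were called in at least 1 pair, as were 6 of the 9 H2-Mv genes. Over all tested genes the share was 19.8%, and for family C it was 14.3%. By pair, 41 of the other V2r genes were higher and 9 lower in B6 than in 129, where 11.1% of all genes were called. In SJL minus 129 there were 21 higher and 10 lower (8.38% of all genes), and in SWR minus 129 39 and 10 (7.73%). In SJL minus B6 there were 17 higher and 34 lower (7.99%), in SWR minus B6 18 and 24 (8.05%), and in SWR minus SJL 15 and 3 (4.50%). None of the 3 genes of basal neurons (Gnao1, Robo2, Tfap2e), the 3 of apical neurons (Gnai2, Meis2, Nrp2) or the 4 tested genes of neuron maturity (Omp, Xntrpc, Gap43, Stmn2) was called. With 19.8% of all genes called, so few genes could show none without being alike between strains. By the FDR alone, all 3, 3 and 4 were under 0.05 in at least 1 pair. The largest median LFC was -0.42 for the basal genes (B6 minus 129), 0.27 for the apical (SWR minus B6) and -0.53 for maturity (SJL minus 129).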

How the data were processed

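RNA of the VNO epithelium of 32 mice was analysed, with groups taken from the sample titles and the number in the description label, read here as the sequencing lane, as replicate number. If so, libraries with the same number share a lane. Their deviations from the group means correlated with a median r of -0.01, and over 0.1 in 22 of 112 pairs. From stranded, ribodepleted libraries, the authors trimmed reads with Trim Galore and mapped them to GRCm38 using STAR. The deposited counts are uniquely mapped fragments of each gene, counted by strand. The deposited signal values are counts that the authors scaled by size factors from DESeq2, and were used for levels, ranges and correlations. No column was left unmapped.

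The members and the gene lists were chosen with earlier results of these data known. All members are named, with the 5 genes most like each and up to 4 called genes of each list, the largest LFC first, while V2r genes outside family C were only counted. Counts were tested with edgeR 4.0.16 (limma 3.58.1, R 4.3.3) after TMM normalization and filterByExpr over 8 groups, with strain and sex as additive terms, FC over 2 and FDR under 0.05 (0.01 for the sexes). Sexes within strains used a model of the group means, and the interaction an F test. SE and 95% intervals were approximated from the F statistic. Alternatives were DESeq2 1.42.0, its size factors, no filter, other limits, subsets of the mice, a replicate block and covariates. Steps were tested on simulated counts. Genes were matched to GENCODE M21 on the same build, promoters to RefSeq, and pairs of sequences aligned with Biopython 1.88. In place of the planned protein identity, coding bases were aligned. p-values measure the spread between individual mice. Intervals cover that spread and not the placement of reads.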

Additional observations from a re-analysis of the deposited data

Results flagged for a closer look

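In 72 groups of 4 mice (9 genes, 4 strains, 2 sexes), 5 held a mouse whose gap to the nearest other took up most of the range of its group by Dixon's test, and chance flags about 1 in 20. H2-M9 was at 215 normalized counts in 129 female replicate 1, below the 259 to 267 of the other 3, and at 380 in B6 male replicate 3, below the 488 to 504 of the others. H2-M10.2 was at 895 in B6 female replicate 4, the library with the fewest reads, above 776 to 789. H2-M10.3 was at 4562 in SJL male replicate 3, above 3949 to 3991. H2-M11 was at 220 in SWR male replicate 2, above 159 to 165. No cause was tested for these values. No other H2-Mv result was set aside, and no interaction of sex and strain passed the threshold.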

How the results depend on the processing

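Of the 12 called strain differences, 6 were called under all 42 other settings: the 4 of H2-M10.4, H2-M10.2 in SJL minus B6 and H2-M1 in SWR minus SJL. The other 6 were called under 34 to 41 of them, and their direction was the same under all 42. Over 540 values with settings other than leaving out a library, 506 kept direction and side of the threshold. This leaves aside the rule with no limit on the FC, under which 44 in place of 12 of the 54 values passed. The counts of called members were 1, 1, 3, 2, 2 and 3 of 9 for B6 minus 129, SJL minus 129, SWR minus 129, SJL minus B6, SWR minus B6 and SWR minus SJL. DESeq2, its size factors, Gnao1 as a covariate and the replicate block gave the same counts. The replicate block used the number read as the lane. It called 1, 1, 3, 2, 2 and 3 members, and 0 for the sexes and the interaction. By the FDR alone it changed 1 call, H2-M10.1 in B6 minus 129 (43 of 54 under 0.05). That count was 42 without the 2 libraries that stood apart, 40 in females alone and with Gnao1, 38 in males alone, 43 without the filter, 48 with family C, and 44 with DESeq2 or its size factors. Leaving out each library gave 6 to 8, 5 to 7, 7 to 8, 9 to 9, 6 to 7 and 6 to 7 in the 6 pairs.

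With no limit on the FC the counts were 8, 6, 8, 9, 6 and 7. Males alone gave 2 in B6 minus 129, 1 in SWR minus B6 and 2 in SWR minus SJL, and females alone gave 0 in SJL minus 129, 1 in SWR minus 129 and 4 in SJL minus B6. A test against an FC of 2 (glmTreat) gave 0 in SJL minus 129, 1 in SWR minus 129, 0 in SWR minus B6 and 2 in SWR minus SJL, and leaving out the 2 libraries that stood apart gave 0 in SJL minus 129. The summed family C genes as a covariate, chosen after seeing the data, gave 2, 0, 1, 7 and 1 in B6 minus 129, SJL minus 129, SWR minus 129, SJL minus B6 and SWR minus B6. Leaving out each library gave 1 to 1, 0 to 1, 3 to 3, 2 to 3, 1 to 2 and 2 to 3 in the 6 pairs and 0 to 0 for the sexes. Without the filter on low counts, H2-M10.1 had an interaction of sex and strain (1 of 9, FDR 0.048), where 428 of 44957 genes were called, and the cause was not tested.

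Directions turned only in values that were not called. In males alone LFC became 0.047 for H2-M10.2 in SWR minus 129 and 0.067 for H2-M10.1 in SWR minus SJL. In females alone it became -0.013 and -0.10 for H2-M10.1 and H2-M10.3 in B6 minus 129 and -0.10 for H2-M9 in SJL minus 129. With the family C covariate it became -0.055 for H2-M9 in SJL minus 129, and -0.062 and -0.14 for H2-M9 and H2-M10.4 in SWR minus B6. Without SJL female replicate 3 it was 0.0048 for H2-M10.1 in SWR minus SJL, and without SJL female replicate 4 it was 0.011 for H2-M10.6 in SJL minus 129. The causes were not tested.

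Without centring by strain the median r of the 36 member pairs was 0.26. Of the 45 places among most like genes, 2 were kept without centring, 19 with Spearman's rho and 25 without the 2 libraries that stood apart, so that single names there depend on the measure. Counts of 64 to 6379 reads per gene and library limit the precision.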
